A study of Mus musculus with 24 samples.

Results

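The immediate early and dissociation response genes followed here are 32 named genes, taken as a fixed list and looked up by symbol among the 24421 gene rows of the series. All 32 were present. They were read in RNA-seq libraries of astrocytes sorted by flow cytometry from 4 brain regions (brainstem, cortex, hippocampus and olfactory bulb) of C57BL6 mice aged 20 weeks, in 8 groups of 3 libraries (4 regions by 2 genotypes). Control mice are labelled NFIAfl/fl; Aldh1l1-GFP, so they carry the floxed Nfia alleles and the astrocyte reporter without Cre. The other mice are labelled NFIAfl/fl; Aldh1l1-CreER; Aldh1l1-GFP and add a Cre recombinase fused to an estrogen receptor domain, driven by the Aldh1l1 promoter, which is active in astrocytes. Both genotypes share the floxed alleles, the reporter, the dissection, the dissociation and the sort. The sources used here do not say whether replicates are separate animals, so the p-values measure the spread among these libraries, which may be partly technical. None of the 24 libraries is labelled as undissociated tissue, so levels before dissociation cannot be told apart from levels gained during it.

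A level here is the number of reads of a gene in a library divided by 1 size factor per library, computed jointly over the 24 libraries. Libraries held 1090777 to 24297573 reads, with the brainstem libraries the shallowest (1090777 to 5552215). The third brainstem library labelled knockout was the shallowest of the 24, and in it 1 read is worth a level of 5.72. The ribosomal precursor row Rn45s took 17.7 to 20.9% of reads in cortex, 13.5 to 25.6% in brainstem, 0.966 to 2.87% in hippocampus and 2.14 to 20.8% in olfactory bulb, where the highest share was in the third library labelled knockout. All 12 astrocyte markers were detected in every group, at a summed level of 112715 to 667075 per library, and the 2 most abundant were Slc1a2 and Aldoc. Nfia, the targeted gene, was higher rather than lower in the libraries labelled knockout, by 0.90 on the log2 scale averaged over regions (SE 0.09, adjusted p = 1.94e-07, limma). It ran from 3294 to 7428 in controls and from 7457 to 13264 in the libraries labelled knockout, so the genotypes did not overlap. Gene rows do not show whether reads come from the floxed part of Nfia, so the groups are named below by their labels.

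Immediate early genes are transcribed within minutes of a stimulus, without new protein synthesis. Signals through ERK and other MAP kinases, calcium and cAMP reach factors already bound at their promoters, among them serum response factor with its ternary complex partners and CREB. Many of the products are transcription factors (the Fos and Jun families, Egr and Nr4a proteins), and others switch the signal off again, such as the MAP kinase phosphatases Dusp1 and Dusp6 or the mRNA decay factor Zfp36. Enzymatic dissociation of brain tissue is a known inducer of these genes in glia and other brain cells, and in neurons Arc, Npas4, Fos and Egr1 also follow synaptic activity.

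Promoter sequence is shown for 5 members, because members that rose and fell together library by library are set below against members that did not. CREB binds the palindrome TGACGTCA and its shorter form TGACG. Both were searched on both strands in the 250 bases upstream of each RefSeq start site (GRCm38.p6), and every TGACGTCA also holds TGACG. Of the 32 members 28 had an entry in the RefSeq promoter table used here (Cyr61 under its current symbol Ccn1), and Arc, Egr1, Egr3 and Ier2 did not. TGACG was in 16 of the 28 members, against 17.9% of all 32536 promoter windows of this length and 19.8% of the 27025 genes with a window, counting a gene once where any of its windows holds it. TGACGTCA was in Dusp1 and Btg2 and in 1.56% of all windows. Each sequence runs 5′ to 3′ on the gene's strand and ends at the base before the start site, with capitals marking TGACG, TGACGTCA or their reverse complements. Fos lies at chr12:85473640-85473889 on the plus strand, Junb at chr8:84978749-84978998 on the minus strand, Btg2 at chr1:134079156-134079405 on the minus strand, Nr4a2 at chr2:57124004-57124253 on the minus strand and Dusp6 at chr10:99262981-99263230 on the plus strand.
Fos: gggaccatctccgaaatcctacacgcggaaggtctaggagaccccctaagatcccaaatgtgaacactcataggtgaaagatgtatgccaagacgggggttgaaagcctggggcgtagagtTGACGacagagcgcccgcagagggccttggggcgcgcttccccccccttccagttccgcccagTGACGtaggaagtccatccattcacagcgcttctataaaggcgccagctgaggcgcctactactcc
Junb: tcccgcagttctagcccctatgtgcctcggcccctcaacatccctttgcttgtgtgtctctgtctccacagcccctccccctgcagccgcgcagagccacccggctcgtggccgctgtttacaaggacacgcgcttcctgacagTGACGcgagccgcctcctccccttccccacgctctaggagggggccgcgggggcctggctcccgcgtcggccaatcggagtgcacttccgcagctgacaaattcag
Btg2: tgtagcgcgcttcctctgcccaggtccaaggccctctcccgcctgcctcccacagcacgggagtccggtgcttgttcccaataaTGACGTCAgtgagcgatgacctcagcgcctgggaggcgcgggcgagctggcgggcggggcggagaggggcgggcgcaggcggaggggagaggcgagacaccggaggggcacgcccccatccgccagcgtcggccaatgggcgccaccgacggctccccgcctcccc
Nr4a2: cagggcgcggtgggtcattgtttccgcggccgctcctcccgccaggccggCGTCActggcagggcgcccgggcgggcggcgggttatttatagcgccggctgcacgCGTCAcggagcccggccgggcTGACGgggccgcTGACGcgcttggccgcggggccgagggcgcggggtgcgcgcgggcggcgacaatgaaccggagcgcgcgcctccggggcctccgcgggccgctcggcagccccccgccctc
Dusp6: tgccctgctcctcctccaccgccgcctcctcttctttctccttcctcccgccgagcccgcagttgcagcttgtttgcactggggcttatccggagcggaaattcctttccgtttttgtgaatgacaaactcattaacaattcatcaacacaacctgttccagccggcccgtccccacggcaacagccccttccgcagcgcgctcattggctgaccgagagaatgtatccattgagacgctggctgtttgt
Fos, the AP-1 subunit, has 2 copies, at 66 and 129 bases upstream of the start. Junb, a partner of Fos in AP-1, has 1 copy, at 106 bases. Btg2, an antiproliferative gene, has the full palindrome at 166 bases. Nr4a2, an orphan nuclear receptor, has 4 copies between 111 and 200 bases. Dusp6, which removes phosphate from ERK, has none in this window. These 5 are examples and do not stand for all members. Jun, Zfp36, Socs3, Fosl2 and Ier3 moved closely with the other members and have no TGACG. Btg1 did not move closely with them and has 2 copies. Npas4 also has 2 copies, but it had 0 reads in 10 libraries, so whether it moved with them cannot be told.

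Other motifs were less common among the members. The CArG box, bound by serum response factor, was in the promoters of Egr2 and Zfp36 and in 1.48% of all windows. The ETS core GGAAGT was in 7 of 28 members (19.8% of all windows) and the TATA motif TATAAA in 5 (12.3%). The AP-1 site TGANTCA was in 0 of 28 members (6.73% of all windows), and the palindromic NFI site, TTGGC and GCCAA with 5 bases between them, in 0 of 28 (0.0369%). A match is a match of letters, and distal elements lie outside these windows.

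Members differed widely in level. Per kilobase of exon (GENCODE vM21), the median level over the 24 libraries was highest for the small GTPase Rhob (183), followed by Egr1 (134), Fos (127), Jun (122) and Dusp1 (91.1). It was lowest for the neuronal activity factor Npas4 (0.461) and for Egr4 (0.854). Egr4 stayed between 0 and 7.56 in every library, with 0 reads in 8 libraries, and was the 1 member left out of the tests, which took genes with a level of at least 20 in at least 3 libraries. The other 31 members were tested among 12759 genes. Npas4 and Socs3 were the other members with 0 reads somewhere, in 10 and 2 libraries. A library with 0 reads allows up to 3 reads by counting error.

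**Figure D1:**
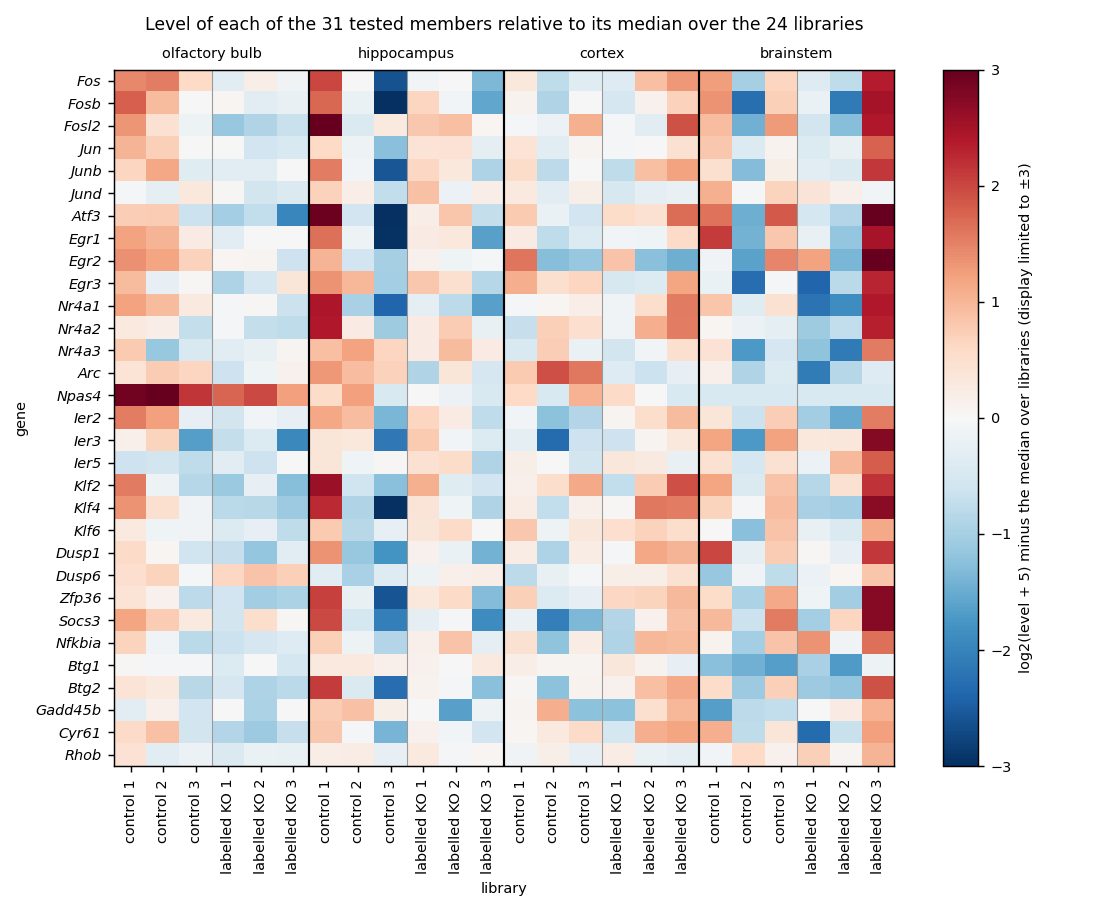
Heat map of the 31 tested members (rows) in the 24 libraries (columns), as log2(level + 5) minus the gene's median over libraries, with colours limited to ±3. Most rows are high in the first hippocampus control and the third brainstem library labelled knockout, and low in the third hippocampus control. Arc, Btg1, Dusp6 and Npas4 follow other patterns. Rhob is also highest in that brainstem library, but its highest level is only 2.77 times its lowest.

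The most visible feature of the list was the difference between libraries of the same group. The summed level of the 32 members was 10923, 3612 and 1698 in the 3 hippocampus controls, so the highest was 6.43 times the lowest. In the brainstem libraries labelled knockout it was 3404, 2696 and 16600, a ratio of 6.16. In contrast, the 3 olfactory bulb libraries labelled knockout lay at 3128, 3262 and 3207, a ratio of 1.04. The olfactory bulb controls held 7295, 6032 and 3733, and the brainstem controls 8306, 2534 and 5797. The hippocampus libraries labelled knockout held 4783, 4586 and 2530. The cortex controls held 4745, 3262 and 3970, and the cortex libraries labelled knockout 3966, 5364 and 6771. The members together made up 0.0329 to 0.337% of the reads other than Rn45s. The third brainstem library labelled knockout gave the highest level of 20 of the 32 members, and the third hippocampus control was alone lowest for 13.

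Atf3 and the AP-1 subunit Fosb had the highest residual SDs among the members, 1.66 and 1.60 on the log2(level + 5) scale with 1 mean per group. Atf3, a stress-induced member of the ATF family, was at 405, 30.6 and 1.48 in the hippocampus controls and at 32.1, 24 and 766 in the brainstem libraries labelled knockout. Fosb was at 458, 117 and 3.71 in the same hippocampus controls, and Fos at 1210, 298 and 44.5. All 3 genes had the same order there, with the first library high and the third low. Jun ranged over 597, 352 and 161 in those controls, a narrower span than its partners. Jund, which is expressed without stimulation in most cells, stayed between 30.4 and 120 in all 24 libraries.

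Egr1, a zinc finger factor induced through serum response factor, was at 1911, 543 and 73 in the hippocampus controls, at 2582, 223 and 1059 in the brainstem controls and at 515, 268 and 3357 in the brainstem libraries labelled knockout. Its groups therefore spanned more than an order of magnitude in both regions. In the olfactory bulb libraries labelled knockout it was at 480, 610 and 594, a narrow range. The orphan nuclear receptor Nr4a1 was at 408, 34.3 and 9.64 in the hippocampus controls and at 11.6, 16 and 400.3 in the brainstem libraries labelled knockout. Its relative Nr4a3 did not show that order in the hippocampus controls, at 87.6, 109 and 72.7. The feedback gene Zfp36 was at 898, 183 and 31.5 and then at 194, 101 and 1447 in those groups, and the phosphatase Dusp1 at 774, 135 and 83.4 and then at 311, 252 and 1321. Klf4, a Krüppel-like factor, was at 373, 38.0 and 3.71 and then at 36.0, 33.6 and 520.4.

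**Figure D2:**
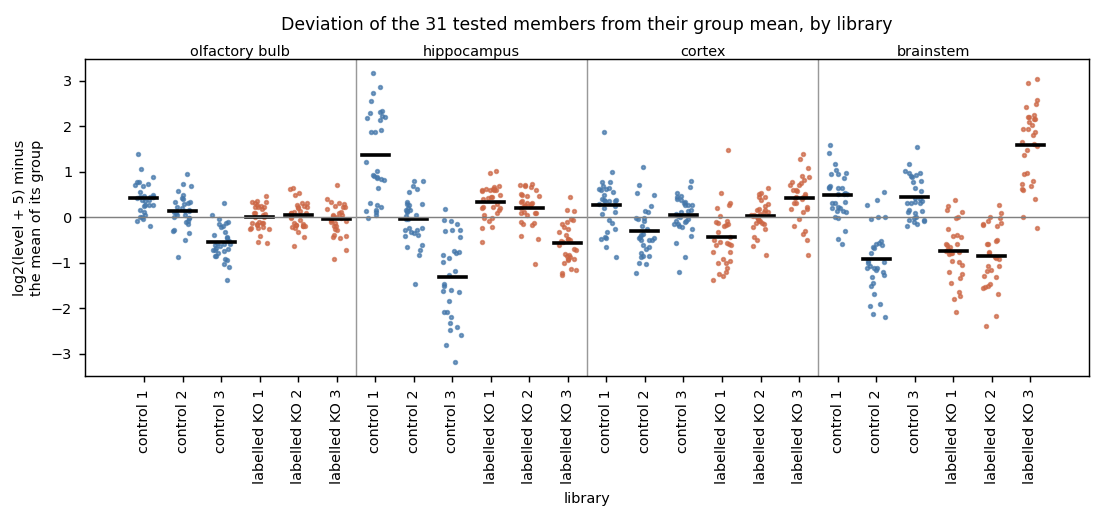
Each point is 1 of the 31 tested members in 1 library, as log2(level + 5) minus the mean of its group of 3 libraries, and bars mark the mean over members. The mean deviation is 1.36 in the first hippocampus control, -1.31 in the third and 1.59 in the third brainstem library labelled knockout, and lies between -0.048 and 0.048 in the 3 olfactory bulb libraries labelled knockout.

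Within groups, the members varied more than the rest of the transcriptome. The residual SD of log2(level + 5), with 1 mean per group, had a median of 1.04 over the 31 members and of 0.399 over all 12759 genes. It was above the all-gene median in 28 of 31 members, from 0.436 for Jund to 1.66 for Atf3, and above 1 in 16. Dusp6 (0.363), the antiproliferative gene Btg1 (0.323) and Rhob (0.308) lay below it.

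The members also deviated together. Pearson's r between 2 members, over the 24 deviations from group means, had a median of 0.58 over the 465 pairs, and 96.1% of pairs were above 0. Fos and Junb were closest (r = 0.98), followed by Egr1 with Fosb (0.97) and Klf4 with Btg2 (0.96). For 19 members r with the mean of the other members was at least 0.8, and for 13 at least 0.9, among them Btg2 (0.98), Fos (0.97), Atf3 (0.96), Zfp36 (0.96), Jun (0.94) and Nr4a1 (0.94). For 7 members it was below 0.5. These were Btg1 (0.44), Jund (0.43), Arc (0.42), Npas4 (0.26), Rhob (0.26), Gadd45b (0.21) and Dusp6 (0.19). Npas4 had 0 reads in 10 libraries, so its low r does not show that it failed to move with the others. The promoter motif TGACG was in 11 of the 16 matched members with r of at least 0.8 and in 4 of the 11 matched tested members below that. These correlations are descriptions: values of a library share its depth, its size factor and its cells.

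Other gene lists moved with the members to different extents. The mean deviation of 45 other early response genes that are not members had r = 0.98 with the mean deviation of the members, and within single regions r was 0.97 to 0.99 over 6 libraries each. Deviations within a group of 3 libraries sum to 0, so the 6 values of a region are not 6 independent observations, here and for the lists below. The 13 heat shock genes, which answer unfolded protein, had r = 0.34. Among cell type markers, the 12 endothelial genes had r = 0.81 (0.91 to 0.95 within regions). The 15 microglia genes had r = 0.76, with 0.99 in brainstem, 0.84 in olfactory bulb, 0.82 in hippocampus and 0.03 in cortex. The 12 mural and fibroblast genes had r = 0.74 (0.64 to 0.97 within regions). The 14 neuron genes had r = 0.48, with 0.96 in hippocampus, 0.44 in olfactory bulb, 0.071 in cortex and 0.0042 in brainstem. The 12 astrocyte genes had r = -0.63, with -0.92 in olfactory bulb, -0.91 in hippocampus, -0.51 in brainstem and 0.026 in cortex. Of the remaining lists, the 11 innate early response genes had r = 0.72, the 31 upstream regulators 0.63, the 7 tested border macrophage genes 0.62 and the 12 oligodendrocyte genes 0.59. Oligodendrocyte precursor (0.13), ependymal (-0.033), neuroblast (-0.079) and choroid plexus genes (-0.23) lay lower. Library size had r = -0.53 on the log2 scale (Spearman's rho -0.32) and the Rn45s share 0.26 (rho 0.37). Without the 2 libraries farthest from the median (the third brainstem library labelled knockout and the third hippocampus control), r was 0.97 for the other early response genes, 0.77 for the endothelial and 0.66 for the microglia genes. The summed endothelial level ran from 404 to 5095 per library and the summed microglia level from 2002 to 7912, and every marker of both lists was detected in each group. In sorted bulk RNA, fewer cells of a type and less RNA per cell cannot be told apart, and the part of these cells in the members' levels was not tested.

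**Figure D3:**
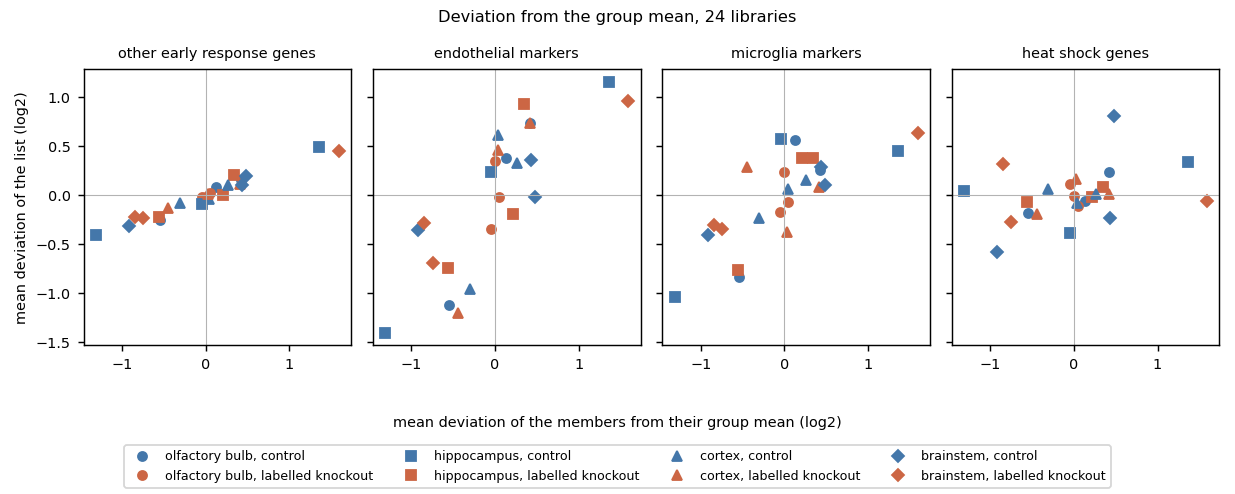
Mean deviation of 4 gene lists from their group means (vertical, log2) against that of the members (horizontal, log2), with 1 point per library, shape for region and colour for genotype label. The other early response genes follow the members closely (r = 0.98), endothelial (0.81) and microglia markers (0.76) do so more loosely, and heat shock genes least (0.34).

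The comparison of genotypes set the libraries labelled knockout against the controls. Averaged over the 4 regions, 2 of the 31 members changed, against 5.75% of all 12759 genes. Arc, the activity-regulated cytoskeletal protein, fell by 1.18 on the log2(level + 5) scale (SE 0.21, adjusted p = 0.000916). Dusp6, the ERK phosphatase, rose by 0.63 (SE 0.14, adjusted p = 0.00596). Adjusted p-values here and below are from limma with Benjamini-Hochberg adjustment over all genes tested. The other 29 members did not pass, with log2 changes from -0.56 (Npas4, adjusted p = 0.260) to 0.44 (Ier3, adjusted p = 0.665). Both members that passed are among the 7 that deviated least with the rest of the list. Their residual SDs (0.518 for Arc, 0.363 for Dusp6) lay below the median of the members (1.04). Changes of this size in members of larger spread could therefore go uncalled. Marker lists of other cells also moved with genotype on average. All 10 choroid plexus genes were below 0 and 7 fell (median log2 -2.03), all 6 tested ependymal genes were below 0 and 4 fell (median -1.01), and the oligodendrocyte gene Cnp fell. The neuroblast gene Tubb2b rose. Of the 12 astrocyte genes, Slc1a3 (0.65), Aldh1l1 (0.50) and Aqp4 (0.39) rose and Gfap fell by 0.84. The summed choroid plexus level was 77854 to 372484 in brainstem controls against 8360 to 139531 in the libraries labelled knockout, 3449 to 95496 against 1115 to 12205 in cortex, and 2568 to 3114 against 2581 to 3120 in olfactory bulb, where Folr1 was at 0 in both groups, Slc4a5 in controls and Prlr in the libraries labelled knockout. Their part in the values of Arc and Dusp6 was not tested.

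Arc lies at chr15:74669083-74672570 on the minus strand (mm10). In cortex it was at 70.3, 162.5 and 127 in controls and at 28.3, 23.2 and 31.8 in the libraries labelled knockout, a mean of 120 ± 46.5 against 27.7 ± 4.32 (SD, n = 3 each), so that all 3 libraries labelled knockout lay below every control and the control mean was 4.32 times higher. In hippocampus it was at 102, 77.9 and 66.0 in controls and at 18.6, 51.1 and 26.0 in the libraries labelled knockout, 2.57-fold higher in controls and again without overlap. In olfactory bulb it was at 52.9, 69.2 and 63.3 against 23.4, 35.3 and 42.5, 1.83-fold higher in controls and without overlap. In brainstem it was at 43.6, 18.2 and 27.9 against 5.14, 19.2 and 28.6, where the groups overlapped and rested on 4 to 41 reads per library. By region, the fall passed the test in cortex alone (-1.86, SE 0.43, adjusted p = 0.0453). It was -1.31 in hippocampus (adjusted p = 0.108), -0.81 in olfactory bulb (adjusted p = 1.0) and -0.72 in brainstem (adjusted p = 0.444). The regions were not shown to differ for Arc (adjusted p = 0.863 in the test of the difference among regions). The cortex call was close to the threshold and was lost in 14 of 24 fits that left out 1 library (any of the 6 olfactory bulb libraries, any of the 3 cortex libraries labelled knockout, the second cortex control, the third cortex control, the second hippocampus control, the third hippocampus library labelled knockout or the third brainstem control), with an adjusted p of up to 0.326. The average over regions passed in all 24 (adjusted p at most 0.00275).

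Neuron markers were read beside Arc, which neurons express strongly. All 14 were detected in every group, the most abundant being Map2 and Camk2a, and none passed the test in any region or on average. Their summed level was 10413 to 12772 in cortex controls and 9165 to 10224 in cortex libraries labelled knockout. In hippocampus it was 6844 to 11504 against 7861 to 11416, in olfactory bulb 6211 to 8150 against 5894 to 9211, and in brainstem 5381 to 6333 against 5610 to 7049. The ranges were apart in cortex and overlapped in the other regions, and the part of neuronal RNA in the level of Arc was not tested. Homer1, Bdnf and Vgf, other activity-regulated genes picked as examples after their values were seen, did not pass on average. Homer1 differed by -0.18 (adjusted p = 0.273), Bdnf by -0.49 (adjusted p = 0.448) and Vgf by -0.14 (adjusted p = 0.872) on the log2 scale.

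Dusp6 lies at chr10:99263231-99267489 on the plus strand (mm10). It was at 137, 86.2 and 131 in hippocampus controls and at 155, 195 and 199.5 in the libraries labelled knockout, and at 98.4, 147 and 167 in cortex controls against 196, 197 and 239. Neither region showed overlap. In brainstem it was at 76.6, 162 and 101 against 153, 181 and 314.5, and in olfactory bulb at 247, 281 and 166.5 against 268, 317 and 291, with overlap in both. In the libraries labelled knockout the mean was 1.91-fold higher in brainstem, 1.55-fold in hippocampus, 1.53-fold in cortex and 1.26-fold in olfactory bulb. No single region passed the test for Dusp6 (adjusted p = 0.120 in brainstem, 0.303 in hippocampus, 0.765 in cortex and 1.0 in olfactory bulb). The average passed in all 24 fits without 1 library, with adjusted p of at most 0.0164. Of other genes induced through ERK signalling, 5 picked as examples after their values were seen did not pass on average, while Hbegf, which is also inducible through ERK, fell by 0.72 (adjusted p = 0.00415). The ETS factor Etv5 was 0.29 higher on the log2 scale (adjusted p = 0.0922), the ERK pathway inhibitor Spry2 0.22 higher (adjusted p = 0.375), and Etv4, Spry4 and Dusp4 lay between 0.074 and 0.14.

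**Figure D4:**
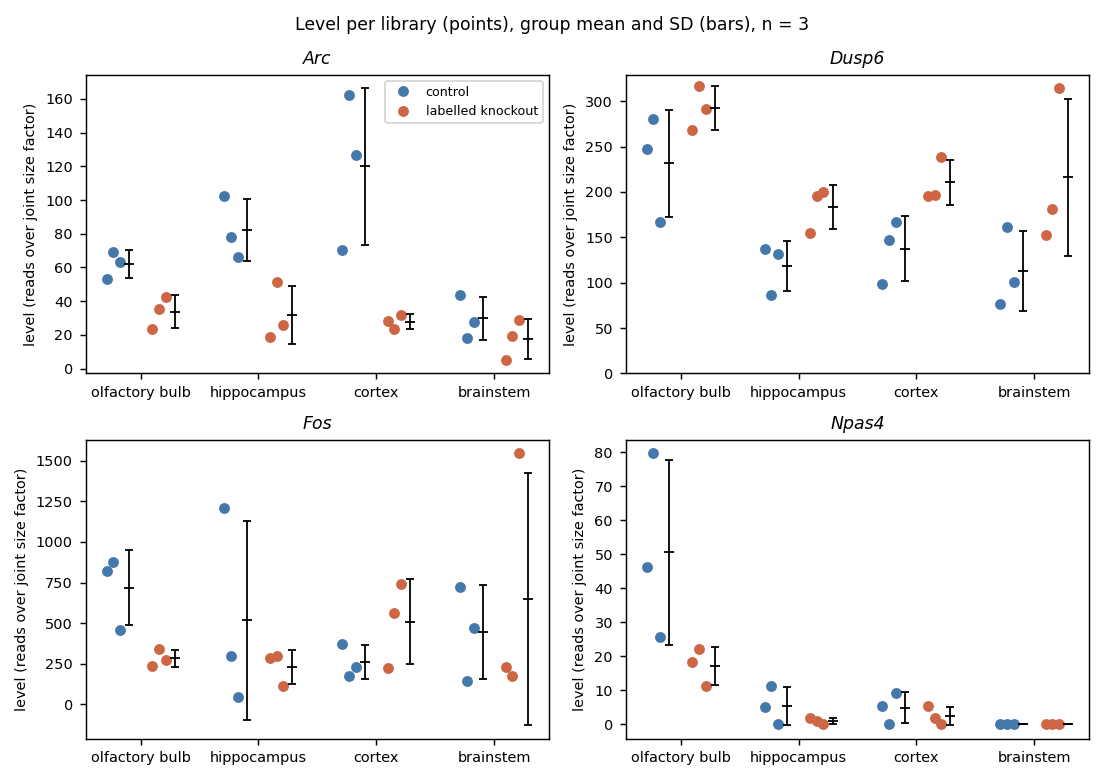
Levels of Arc, Dusp6, Fos and Npas4 by region, with 1 point per library and the group mean and SD (n = 3) beside it, controls in blue and libraries labelled knockout in orange. Arc is lower in all 3 libraries labelled knockout of olfactory bulb, hippocampus and cortex, Dusp6 is higher without overlap in hippocampus and cortex, Fos spans 44.5 to 1210 within the hippocampus controls, and Npas4 is 0 in all 6 brainstem libraries.

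In olfactory bulb none of the 31 members passed the test, against 0.0862% of all genes, and 1 had an unadjusted p under 0.05 (Npas4, which passed the filter on low values only through its olfactory bulb libraries). edgeR, DESeq2 and limma-voom, also fitted over all 24 libraries, called 0 there as well. The members' values lay mostly on 1 side. Members move together within a library, so counts of members, here and in the regions below, are not independent observations. In the first control 28 of 31 members lay above their group mean, and in the third 29 lay below it. The log2 change was below 0 in 28 of 31 members, against 51.3% of all genes, with a median of -0.75 against -0.0098 over all genes. In 12 members all 3 libraries labelled knockout lay below every control, against 6.92% of all genes, and in 0 members above (7.15%). These were Arc, Atf3, Cyr61, Egr1, Egr2, Fos, Fosl2, Jun, Klf4, Klf6, Npas4 and Nr4a1. The counts of 28 and 12 include Npas4, whose part in them is not read as a result, since only its olfactory bulb libraries passed it through the filter. Fos was at 823, 878 and 456 in controls and at 235, 341 and 276 in the libraries labelled knockout, a mean 2.53-fold higher in controls (log2 -1.28, SE 0.98, adjusted p = 1.0). That SE rests on 1 spread per gene over all 8 groups, which for Fos takes in hippocampus controls from 44.5 to 1210. In the fit on the olfactory bulb libraries alone Fos was called, so the SE does not measure the spread within this region. Egr1 was at 1408, 1234 and 716 against 480, 610 and 594, 1.99-fold higher in controls. The third control lay nearest to the other genotype for both genes. The 15 microglia markers were all below 0 in this comparison (median log2 -0.92, 0 called), at a summed level of 2357 to 6063 in controls and 2002 to 2774 in the libraries labelled knockout. The 12 endothelial markers were below 0 in 11 (median -0.32, 0 called), at 404 to 1788 against 596 to 1049. Their part in the members' values was not tested.

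In hippocampus none of the 31 members passed, against 2.36% of all genes, and 2 had an unadjusted p under 0.05. edgeR called 0, while DESeq2 and limma-voom each called Arc. The median log2 change was 0.03, with 15 members below 0 (49.8% of all genes were) and 16 above. Arc and Gadd45b were lower without overlap (10.4% of all genes were) and Dusp6 higher (9.73%). Without the first hippocampus control the median was 0.76 and without the third it was -0.88, so 1 library set its direction. Choroid plexus RNA stood apart in this comparison. All 10 choroid plexus genes were below 0 and 6 were called lower (median log2 -4.82), at a summed level of 107835 to 223690 in controls and 3592 to 9419 in the libraries labelled knockout, with Ttr and Enpp2 the most abundant and none at 0. All 6 tested ependymal genes were below 0 and 2 were called lower (Mia and Foxj1), at 218 to 332 against 36.7 to 77.7. All 7 tested border macrophage genes were below 0 (median -0.98, 0 called), at 129 to 1101 against 148 to 281. All 12 oligodendrocyte genes were below 0 (median -0.71, 0 called), at 19504 to 42384 against 13971 to 26961. Their part in the members' values was not tested.

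In cortex Arc was the 1 member of 31 that passed, against 0.376% of all genes. The median log2 change was 0.37, with 23 members above 0 and 8 below (50.6% of all genes were below). Btg2, Dusp6 and Ier2 were higher in the libraries labelled knockout without overlap (7.06% of all genes were), and Arc was lower (7.48%). Ier2, a short-lived nuclear protein, was at 17.3, 5.04 and 7.74 in controls and at 19.9, 29.0 and 40.8 in the libraries labelled knockout (log2 1.25, SE 0.68, adjusted p = 0.868). These levels rest on 16, 4 and 5 reads in controls and on 19, 15 and 45 reads in the libraries labelled knockout. In this region all 12 endothelial markers were above 0 (median log2 0.65, 0 called), and their summed level was 576 to 2197 in controls and 1104 to 3927 in the libraries labelled knockout. Their part was not tested.

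In brainstem none of the 31 members passed, against 0.666% of all genes, with 2 at an unadjusted p under 0.05. edgeR, DESeq2 and limma-voom also called 0. The median log2 change was 0.16, with 20 members above 0 and 10 below (50.5% of all genes were below). It was -0.76 without the third library labelled knockout. Gadd45b, a stress-inducible growth arrest gene, was the 1 member higher without overlap (5.42% of all genes were), and 0 members were lower without overlap (5.65%). It was at 1.06, 6.07 and 6.43 in controls and 14.1, 17.6 and 34.3 in the libraries labelled knockout. In hippocampus it was at 27.3, 29.7 and 16.3 in controls and at 13.8, 1.11 and 11.9 in the libraries labelled knockout.

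**Figure D5:**
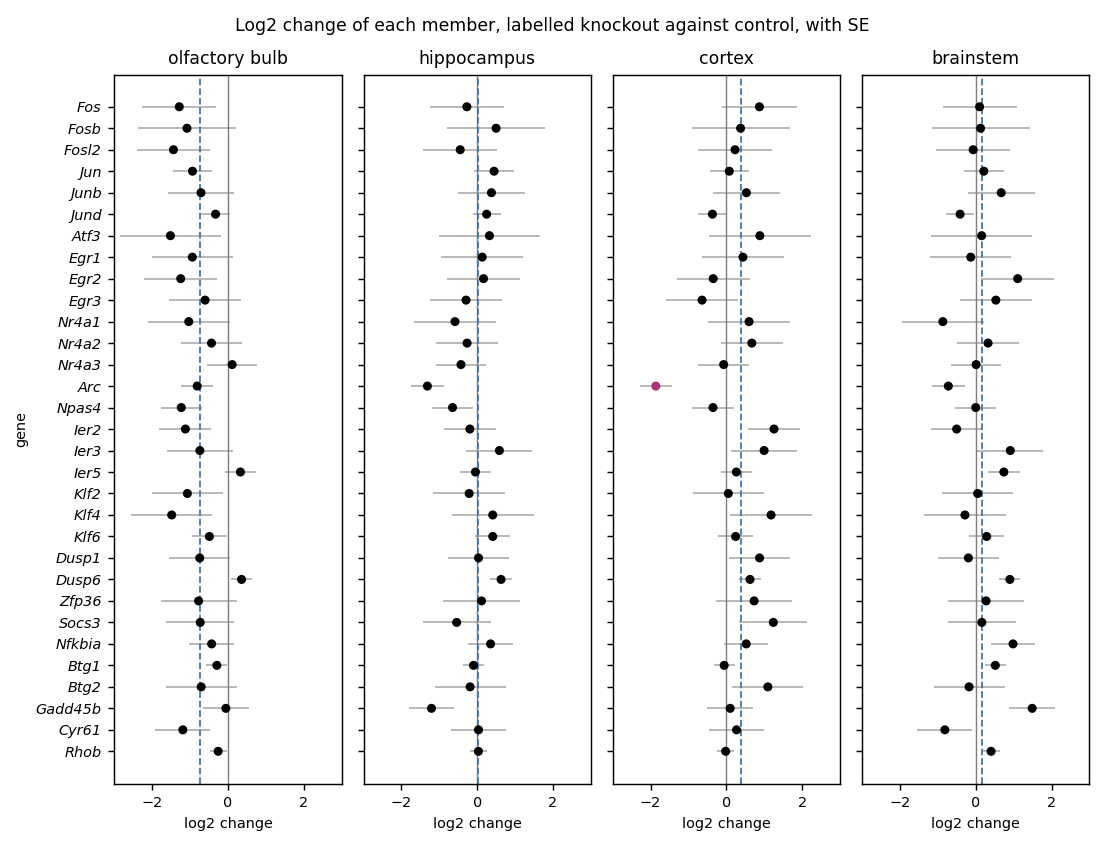
Log2 change of each of the 31 tested members between libraries labelled knockout and controls in each region, with SE as bars, and the median over members as a dashed line. Arc in cortex, the coloured point, is the change past the test. The medians are 0.37 in cortex, 0.16 in brainstem, 0.03 in hippocampus and -0.75 in olfactory bulb, with a median SE of 0.81.

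Whether the genotype difference itself differed between regions was tested by 1 F test over the 4 regional changes. None of the 31 members passed, against 0.0705% of all genes, and edgeR, DESeq2 and limma-voom also called 0. The lowest p among members was that of Gadd45b (unadjusted p = 0.0324, adjusted p = 0.622), the 1 member with an unadjusted p under 0.05.

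Regions were compared within each genotype, contrasting a region with the average of the remaining 3, at an adjusted p under 0.05 and a log2 difference above 1. In olfactory bulb 1 of 31 members was called higher in controls, against 4.47% of all genes, and 1 of 31 in the libraries labelled knockout, against 3.93%. That member was Npas4 in both. It passed the filter on low values only through its olfactory bulb libraries, so these calls are not read as results and its levels are given as a description. Npas4, a transcription factor induced by calcium entry in neurons, was at 46.3, 79.7 and 25.7 in olfactory bulb controls and at 18.3, 22.1 and 11.2 in the libraries labelled knockout. It reached at most 11.1 in hippocampus and 9.28 in cortex, and had 0 reads in all 6 brainstem libraries. Against the level that 3 reads over the group would give, it was at least 32-fold higher in olfactory bulb than in brainstem controls, and at least 9.06-fold higher in the libraries labelled knockout. Its genotypes did not overlap in olfactory bulb, which is likewise a description and not read as a result. Other genes of neurons and their precursors were also higher there. In controls 6 of 8 tested neuroblast genes were called higher in olfactory bulb and 1 lower (median log2 2.23), among them Sp8 (5.32), Dcx (3.54) and Dlx1 (2.47). Of the 14 neuron genes 3 were called higher, Gad1 (3.28), Gad2 (1.81) and Syt1 (1.21), and 2 lower. In the libraries labelled knockout 5 neuroblast genes were higher and 1 lower (median 1.70), and of the neuron genes Gad1 (2.96) and Gad2 (1.86) were higher and 3 lower. The summed neuroblast level was nonetheless 1312 to 1657 in olfactory bulb controls, 1051 to 1763 in hippocampus controls, 1870 to 2031 in cortex controls and 409 to 955 in brainstem controls, where Dlx1 and Dlx2 were at 0. In the libraries labelled knockout it was 1450 to 1825 in olfactory bulb, 1762 to 2009 in hippocampus, 2185 to 3306 in cortex and 977 to 1158 in brainstem, where Dlx1, Dlx2 and Dlx5 were at 0. The part of these cells in the level of Npas4 was not tested.

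Control brainstem held 3 of the 31 members called lower, against 4.26% of all genes, and 0 called higher (5.56%). Btg1 was at 60.7, 52.6 and 45.0 there and at 145 to 188 in the other control libraries, without overlap (log2 -1.57, SE 0.22, adjusted p = 7e-06). Arc was lower by 1.40 (SE 0.35, adjusted p = 0.00504) and its highest brainstem control (43.6) lay below its lowest control elsewhere (52.9). The third was Npas4, which is not read as a result for the reason given above. Of the 14 neuron markers 5 were also called lower in control brainstem, Camk2a (-5.82), Slc17a7 (-2.70), Nrgn (-2.05), Syt1 (-1.35) and Gad1 (-1.06), and Nefl and Stmn2 higher. In control cortex 3 were called higher, Camk2a (3.02), Nrgn (2.29) and Slc17a7 (1.27), and 0 lower. Their part in the regional levels of Arc was not tested. In the brainstem libraries labelled knockout Btg1 was at 75.8, 43.2 and 137 and its difference of -0.90 (adjusted p = 0.00432) stayed under the log2 threshold. Rhob was 0.70 higher there (adjusted p = 0.00729), also under it. In controls, 0 members were called in hippocampus (1.73% of all genes, 3 members at an unadjusted p under 0.05, 0 by the other tools) and 0 in cortex (3.49%, 3 members). In cortex edgeR, DESeq2 and limma-voom called 1, Arc, which was 1.04 higher than elsewhere (adjusted p = 0.0701 in limma). In the libraries labelled knockout 0 members were called in hippocampus (3.03%, 1 member), cortex (2.89%, 0 members) and brainstem (10.6%, 5 members). By the other tools 0 were called in the first 2 of these, while in brainstem edgeR called Ier5, DESeq2 called Egr2 and Ier5, and limma-voom called 0.

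Genes upstream and downstream of the members were read from lists of pathway genes. Of 31 upstream regulators (kinases, CREB, serum response factor and their coactivators), 2 rose and 0 fell on average over regions, against 5.75% of all genes called. The acetyltransferase Ep300 rose by 0.28 (adjusted p = 0.00765) and the ERK kinase Map2k1 by 0.36 (adjusted p = 0.0267) on the log2 scale, and the median of the list was -0.03. Of 45 tested other early response genes, 1 rose and 1 fell, with a median of -0.14. The circadian repressor Bhlhe40 rose by 0.48 (SE 0.07, adjusted p = 7.1e-05) and the EGF receptor ligand Hbegf fell by 0.72 (SE 0.15, adjusted p = 0.00415). By region, Bhlhe40 also rose in hippocampus (0.87, adjusted p = 0.00112), the CREB coactivator Crtc3 rose in brainstem (0.78, adjusted p = 0.0358) and the endoplasmic reticulum chaperone Hspa5 fell in hippocampus by 0.97 (adjusted p = 0.0280). Of the 13 heat shock genes 0 passed on average (median -0.15, 3 at an unadjusted p under 0.05), and of 11 tested innate early response genes 0 (median 0.02, 0 at an unadjusted p under 0.05).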

How the data were processed

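Per the labels' protocols, the RNeasy Micro kit was used for RNA and NuGEN's Trio RNA-Seq kit for libraries, with an input of 5 ng. FastQC, STAR 2.5.0a, DESeq2 1.20.0 and mm10 are named in the submitters' processing notes; the counting tool and annotation are not given in the sources used here. The deposited values are a signal the authors scaled by 1 size factor per library. Every value was a whole multiple of 1 step within 0.01 read (100% of values in each library), so reads were recovered. The authors' factors were 0.994 to 0.998 times the joint ones outside cortex but 1.26 to 1.27 times in cortex, so reads were divided by median-of-ratios factors computed jointly over the 24 libraries.

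limma 3.58.1 (R 4.3.3, trend and robust) was fitted to log2(level + 5) of 12759 genes with a level of at least 20 in at least 3 libraries, with 1 mean per group, 16 residual degrees of freedom and two-sided p-values adjusted by Benjamini-Hochberg (threshold 0.05). Fold changes on this scale understate changes of low genes. Contrasts share libraries: each region's control group enters the genotype and the region comparisons. The fit was tested on simulated data in which genes varied independently, with 1 common setting of spread. That test does not cover genes that move together or vary as widely as many members do. Alternatives were other filters, added constants, the deposited scale, edgeR 4.0.16, DESeq2 1.42.0, limma-voom, fits on the compared libraries alone, a replicate block and leaving out each library. The members and lists were chosen with earlier results of these data known. Per-library values are printed for members called for genotype or with the largest regional differences, and for examples of each role, chosen after their values were seen; other genes are named where their list's test called them. Promoter windows are from RefSeq (GRCm38.p6) and exon lengths from GENCODE vM21. Depth limits the brainstem values most.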

Additional observations from a re-analysis of the deposited data

Results flagged for a closer look

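Gadd45b was the 1 member whose genotype difference went opposite ways in 2 regions with every library on its side. Among all 12759 tested genes 2.67% did so in some pair of regions, so 1 of the 31 tested members is close to the share of all genes. Lower in hippocampus and higher in brainstem were 0.133% of all genes. That share is for the pair and direction of Gadd45b itself, so it does not measure how rare such a reversal is among the members. In hippocampus all 3 libraries labelled knockout lay below every control (log2 -1.21, SE 0.60, adjusted p = 0.387 in limma), and in brainstem all 3 lay above (1.49, SE 0.60, adjusted p = 0.231). The 2 changes differ by 2.70 on the log2 scale. The F test over the 4 regions gave an unadjusted p of 0.0324 and an adjusted p of 0.622, so the difference did not pass over all genes, and the direct difference between these 2 regions was not tested. The levels were at most 34.3, and the brainstem controls lay between 1.06 and 6.43, which rest on 1, 3 and 3 reads.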

How the results depend on the processing

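The average changes of Arc and Dusp6 kept their direction and passed in all 24 fits without 1 library and in all 11 other fits (log2 -1.45 to -0.89 for Arc and 0.57 to 0.65 for Dusp6 in the latter). In cortex the number of members called was 0 with no low-value filter, with an added constant of 1, on the deposited scale and with edgeR's RLE factors, and 0 to 1 without 1 library; it fell to 0 without any 1 of 5 cortex libraries. In olfactory bulb 1 member (Fos) was called from that region's libraries alone, and in hippocampus 1 (Arc) by DESeq2 and by limma-voom. In brainstem 0 to 1 were called without 1 library (Dusp6 without the second control) and 1 (Nr4a1) without the 2 libraries of highest summed member level, the first hippocampus control and the third brainstem library labelled knockout, an alternative chosen after seeing the data.

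For regions, control olfactory bulb had 2 members called without the log2 threshold, on the deposited scale and without those 2 libraries, 0 with a level of at least 50 required, and 1 to 2 without 1 library. Control hippocampus had 2 without those 2 libraries. Control cortex had 1 (Arc) with edgeR's TMM and RLE factors, DESeq2 and limma-voom, and 0 to 1 without 1 library. Olfactory bulb labelled knockout had 0 with a level of at least 50 or an added constant of 20, and cortex labelled knockout 3 without the 2 libraries. Brainstem labelled knockout had 2 without the threshold and with DESeq2, 1 on the deposited scale, with edgeR's TMM or RLE factors and from the libraries of 1 genotype alone, 4 without the 2 libraries, and 0 to 3 without 1 library. The cause was not tested.

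Without 1 library, the median change of the members lay between -1.13 and -0.52 in olfactory bulb (-1.13 without the third control), between -0.88 (without the third control) and 0.76 in hippocampus, between 0.15 and 0.74 in cortex, and between -0.76 and 0.67 in brainstem. The number of all genes called in the genotype comparisons ranged over the planned fits, other than those without 1 library, from 11 to 76 in olfactory bulb (11 as reported), 262 to 638 in hippocampus (301), 29 to 133 in cortex (48), 0 to 167 in brainstem (85), 663 to 1003 on average (734) and 0 to 85 for the difference among regions (9). For regions it moved by over 1.5 times without the log2 threshold in all 8 comparisons, to 365 to 2424 genes, on the deposited scale in cortex (818 against 445 in controls, 663 against 369 in the libraries labelled knockout) and with DESeq2 in control hippocampus (365 against 221). The labels do not say what a replicate number marks, and not every same-numbered pair deviated together: r was above 0.1 in 5 of 12 pairs across genotypes (-0.11 to 0.32) and in 10 of 36 pairs across regions (-0.19 to 0.32), though 15 of 24 libraries correlated best with their own number, a hint from the data alone. With the replicate block 1 member was called in cortex, 2 on average and 0 in the other genotype comparisons, so no such member call changed; the all-gene count moved to 16 in olfactory bulb, 128 in brainstem and 19 for the difference among regions. The average and the difference among regions could not be given from 1 region's libraries alone.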

Other observations

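Among tested genes outside the members, those whose deviations from group means were closest to the mean deviation of the members over the 24 libraries were Pik3ap1 (r = 0.92), Mef2c (0.92), Cd34 (0.89), Fam65a (0.89) and the nuclear RNA Neat1 (0.89). Mef2c is a transcription factor of microglia, neurons and vessels, Cd34 a surface marker of endothelial cells and Pik3ap1 an adaptor of immune cells. Mkl2, from the list of upstream regulators, was also close (0.88). The part of any cell type in these correlations was not tested. They were named after their values were seen, and their r is a description.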
